A study of Mus musculus with 6 samples.

Results

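The contractile genes of smooth muscle and myoepithelial cells described here are Acta2, Actg2, Myh11, Myl9, Mylk, Cnn1, Tagln, Lmod1 and Oxtr. These 9 genes were taken by symbol from count tables that list 52636 mouse genes each, and all 9 matched a single Ensembl gene of the build mm10. Of the 9 genes, 7 passed the filter on low counts and were tested among 12885 genes, and Tagln and Actg2 did not pass it. Between irradiated and untreated glands 0 of the 7 passed the edgeR test, where 1.00% of all tested genes did, and the groups overlapped for all 9 members, where 21.2% of all tested genes had groups that lay apart. The members did differ from each other, both in level and in how far their values can be read as levels.

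Myoepithelial cells are flat epithelial cells that embrace the acini and ducts of salivary glands and squeeze saliva out of them. They share their contractile machinery with the smooth muscle of blood vessels: a rise in calcium activates the myosin light chain kinase, the phosphorylated light chain lets the myosin motor pull on actin filaments, and calponin and related proteins stabilise or restrain the filaments. Transcription of these genes depends on the serum response factor, which binds the CArG box, and on its coactivators of the myocardin family. In a bulk sample a lower level can mean fewer cells of a type or less RNA per cell, and the 2 cannot be told apart. Nor can reads of these genes from myoepithelial cells be told from those of vessel walls.

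Parotid glands were taken from 28-day-old mice of the inbred strain FVB, and the design text calls the untreated ones wild type. There were 3 untreated samples and 3 irradiated ones, the latter exposed to 5 Gy in 1 dose. The labels carry the dose text on all 6 samples, so the groups were taken from the treatment entry of each sample. They give neither the time from irradiation to collection nor whether each sample came from its own mouse, so p-values measure only the spread between these samples, which may be technical.

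Each library held between 7108359 and 15036193 counts in genes. Irradiated replicate 2 stood apart: it had the lowest total, reads without an alignment made up 10.01% of it, where the others had 3.75% to 4.33%, and 184 reads stood in its row for low alignment quality against 342749 to 491591 in the other libraries. The members' results that rest on it are given with and without it. Acinar markers were present in every library and summed to between 387957 and 516154 CPM, counts scaled to a common library size. This sum by itself does not tell the parotid from other salivary glands. The scaling used the library size times a normalisation factor, TMM. Myoepithelial keratins were present in every library, with Krt14 at 54 to 171 counts and Krt5 at 57 to 116.

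Sequence bears on how the counts of some members can be read, and the stretches shown were chosen for that. Tagln encodes transgelin, an actin-binding protein of smooth muscle, and lies on the minus strand of chromosome 9 (ENSMUSG00000032085; 45929619 to 45936058). All 603 coding bases of its longest transcript fall inside exons of genes on the opposite strand, among them 1 exon of Gm48529 (45930112 to 45932438), an antisense gene that the count tables list as well. The 103-base coding exon at chr9:45930833-45930935 is given once as Tagln reads it and once as Gm48529 reads it, both from GENCODE transcripts on mm10.
Tagln, minus strand: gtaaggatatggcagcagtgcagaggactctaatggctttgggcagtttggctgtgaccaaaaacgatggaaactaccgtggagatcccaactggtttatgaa
Gm48529, plus strand: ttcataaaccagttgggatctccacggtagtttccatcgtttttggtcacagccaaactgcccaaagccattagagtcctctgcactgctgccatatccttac
A read from this exon lies in both genes, and only its strand separates them.

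Tagln counts were 2, 1 and 5 in untreated glands and 6, 2 and 1 in irradiated glands. Gm48529 counts were 4, 4 and 7 in untreated glands and 1, 3 and 1 in irradiated glands. The tables hold a row for reads that could not be given to 1 gene, which took 8.22% to 9.83% of all reads, and the strand setting of the counting was not given in the sources used here. Tnnc2, a troponin of fast skeletal muscle, had the same arrangement, with 477 of 480 coding bases inside exons of the opposite strand, and at most 2 counts in any library. Of 89 protein-coding genes with at least 80% of their longest transcript in such exons, 82.0% had under 10 counts over all 6 libraries, against 39.9% of 17612 genes with no such base. The longest Tagln transcript, with 61.8% of its bases in such exons, is below that share and not among the 89, while the Tagln transcript of 933 bases has 95.7%. The part of this overlap in the low Tagln value was not tested. Tagln is therefore not read as a level below.

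Acta2, smooth muscle alpha-actin, and Actg2, smooth muscle gamma-actin, are close paralogs, and the next stretch shows how far short reads can separate them. Their coding sequences were 84.2% identical, and the longest identical run was 29 bases. The 120 coding bases around that run are given from the GENCODE transcripts, with capitals at the 21 positions where the 2 genes differ.
Acta2, coding bases 591 to 710: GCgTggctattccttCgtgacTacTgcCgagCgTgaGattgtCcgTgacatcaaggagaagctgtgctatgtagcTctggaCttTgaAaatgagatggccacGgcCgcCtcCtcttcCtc
Actg2, coding bases 588 to 707: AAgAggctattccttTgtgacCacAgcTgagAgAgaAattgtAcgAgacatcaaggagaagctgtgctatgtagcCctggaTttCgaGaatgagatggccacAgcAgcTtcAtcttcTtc
Of all 50-base words in the longest Acta2 transcript, 0.352% also occurred on either strand of a transcript of another gene, and none of the Actg2 words did. For Myh11 the share was 0.400%, and for Mylk 4.28%, shared with antisense genes that the count tables do not list. The share was 0 for Cnn1, Myl9, Lmod1 and Oxtr. For Tagln it was 48.3%. The other 8 members thus shared few words of this length with other genes.

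The CArG box was looked for on both strands in the 250 bases before the start of transcription, by RefSeq promoters on GRCm38.p6, which held 6 of the 9 members. Of these 6 windows 1 held the box, that of Myl9, at 161 bases before the RefSeq start, while 1.47% of all 32851 windows of this length held it. The Myl9 window lies at chr2:156775214-156775419 on the plus strand and is given up to the first GENCODE exon, with the box in capitals.
Myl9: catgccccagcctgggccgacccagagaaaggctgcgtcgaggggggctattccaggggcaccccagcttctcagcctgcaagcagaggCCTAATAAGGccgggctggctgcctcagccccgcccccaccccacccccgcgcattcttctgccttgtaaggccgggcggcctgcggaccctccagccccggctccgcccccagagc
The match is a description of the letters. The RefSeq and GENCODE starts differ. In GENCODE exons lie 217 of the 250 Acta2 bases and 118 of the 250 Oxtr bases. The Acta2 window thus lies before the start by RefSeq but is mostly transcribed sequence by GENCODE. Only the exact pattern counted: CC, 6 bases of A or T, then GG. Stretches 1 base off it, such as ccctatatgg and ccttgtttgg in the Acta2 window, did not count. The windows of Acta2, Cnn1, Mylk, Lmod1 and Oxtr held no exact match in these 250 bases, and these data hold no measure of binding.

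Among the filament proteins, Acta2 (ENSMUSG00000035783; chromosome 19, 34241090 to 34255590) had the highest level per kb of the 9. It stood at 32.6, 30.6 and 39.9 CPM in the untreated libraries and at 24.8, 33.8 and 28.8 CPM in the irradiated ones. The highest value was untreated and the lowest irradiated, and the groups overlapped through irradiated replicate 2. The log2 fold change, irradiated over untreated, was -0.25 (SE 0.13; edgeR adjusted p = 0.399), with a 95% interval from 0.697-fold to 1.02-fold. Without irradiated replicate 2 it was -0.36 (SE 0.13; edgeR adjusted p = 0.224). Actg2 (ENSMUSG00000059430; chromosome 6, 83512905 to 83536265), typical of gut and other visceral muscle, gave 1, 9 and 9 counts without irradiation and 5, 11 and 2 after it, too few to test.

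Myh11 (ENSMUSG00000018830; chromosome 16, 14194535 to 14291372) encodes the smooth muscle myosin heavy chain, the motor. It stood at 23.9, 23.0 and 19.5 CPM in untreated and 17.5, 22.3 and 23.0 CPM in irradiated glands. The ranges overlapped widely, and the log2 fold change of -0.09 (SE 0.13; edgeR adjusted p = 0.813) had a 95% interval from 0.778-fold to 1.14-fold. Its sign turned to 0.03 without irradiated replicate 1 and to 0.06 when libraries were scaled by their totals alone. Myl9 (ENSMUSG00000067818; chromosome 2, 156775420 to 156781658), the regulatory light chain that the kinase phosphorylates, was even across the untreated libraries, at 14.2, 13.6 and 13.3 CPM. The irradiated libraries held 10.3, 14.1 and 11.5 CPM, with irradiated replicate 2 inside the untreated range. The log2 fold change was -0.21 (SE 0.15; edgeR adjusted p = 0.566), or -0.33 (SE 0.17; edgeR adjusted p = 0.404) without irradiated replicate 2.

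Mylk (ENSMUSG00000022836; chromosome 16, 34745210 to 35002420), the myosin light chain kinase, stood at 14.6, 18.7 and 20.5 CPM in untreated and 11.7, 18.6 and 14.7 CPM in irradiated glands. Its log2 fold change was -0.28 (SE 0.17; edgeR adjusted p = 0.483), or -0.45 (SE 0.17; edgeR adjusted p = 0.241) without irradiated replicate 2. Lmod1 (ENSMUSG00000048096; chromosome 1, 135324807 to 135368065) encodes leiomodin, which seeds actin filaments in smooth muscle. Its levels were 2.96, 4.72 and 4.67 CPM in untreated and 2.86, 2.53 and 3.97 CPM in irradiated glands, a log2 fold change of -0.39 (SE 0.29; edgeR adjusted p = 0.575). The groups overlapped for both genes.

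Cnn1 (ENSMUSG00000001349; chromosome 9, 22099216 to 22109630), the basic calponin that restrains the myosin motor, was the member at an unadjusted p under 0.05 in the main edgeR fit. It stood at 3.54, 5.33 and 6.20 CPM in untreated and 1.93, 4.33 and 3.02 CPM in irradiated glands, on 29 to 93 counts per library. Irradiated replicates 1 and 3 lay below every untreated library, and irradiated replicate 2 lay above untreated replicate 1. The log2 fold change was -0.75 (SE 0.31), with a 95% interval from 0.381-fold to 0.932-fold before adjustment and an edgeR adjusted p of 0.253 over all genes. It ran from -0.47 without irradiated replicate 1 to -1.04 without irradiated replicate 2. Counted against Acta2, which removes any scaling between libraries, there were 10.9, 17.4 and 15.6 Cnn1 counts per 100 Acta2 counts in untreated and 7.80, 12.8 and 10.5 in irradiated glands. These ratios overlapped too.

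Oxtr (ENSMUSG00000049112; chromosome 6, 112473683 to 112489943) encodes the oxytocin receptor, best known for driving myoepithelial contraction in the mammary gland. It was the most uneven of the 7 tested members, at 1.07, 1.31 and 3.20 CPM in untreated and 0.33, 6.62 and 1.81 CPM in irradiated glands. The underlying counts were 13, 15 and 48 in untreated and 5, 55 and 21 in irradiated libraries. The lowest and the highest values were both irradiated. The log2 fold change was 0.52 (SE 1.12; edgeR adjusted p = 0.886), with a 95% interval from 0.182-fold to 11.2-fold, and it turned to -0.87 (SE 0.70; edgeR adjusted p = 0.643) without irradiated replicate 2. In the same library Prol1, a gene of the acinar marker list, stood at 442.4 CPM, against 32.8 to 40.9 CPM in the other 5. Actg2 also had its highest CPM there, at 1.32. The part of whatever sets this library apart in the Oxtr value was not tested.

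**Figure D1:**
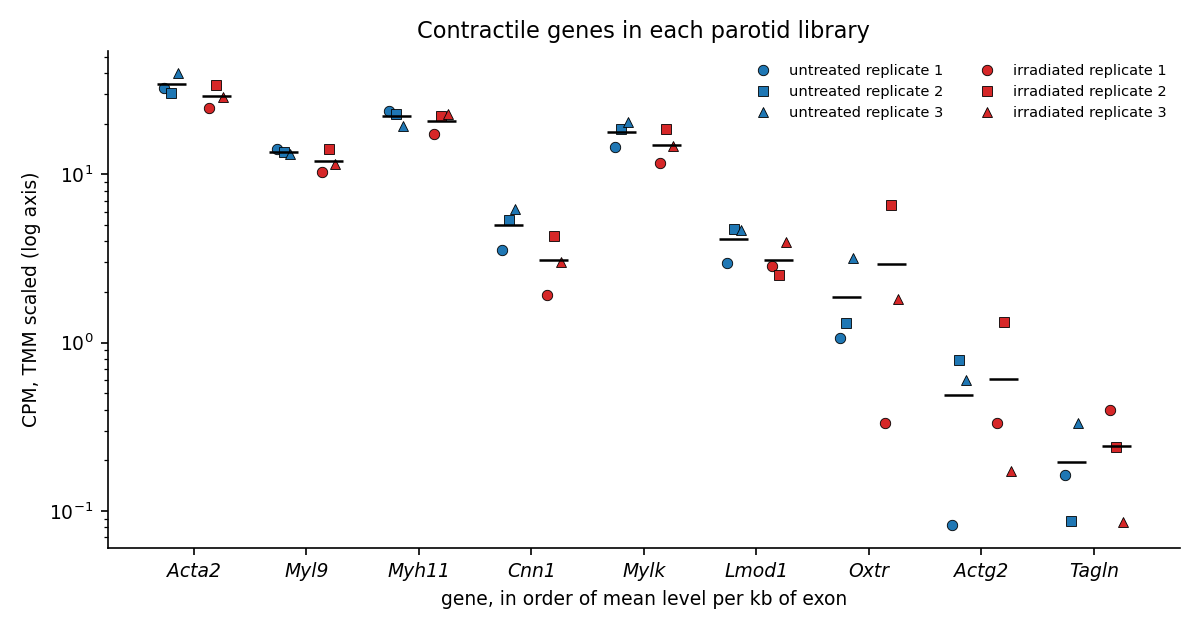
Level of each contractile gene in each library, in TMM-scaled CPM on a log axis, with bars at the group means and genes ordered by mean level per kb of exon. The groups overlap for each of the 9 genes, from Acta2 at 24.8 to 39.9 CPM down to Tagln and Actg2 under 1.5 CPM, and Oxtr spreads from 0.33 to 6.62 CPM within the irradiated group.

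Per kb of exon, Acta2 and Myl9 formed the upper tier, at means over the 6 libraries of 14.5 and 11.0 CPM per kb. Their ranges overlapped, from 11.3 to 18.2 for Acta2 and from 8.88 to 12.3 for Myl9, but Acta2 was higher in 6 of 6 libraries. Myh11 followed at 2.83 CPM per kb (2.30 to 3.15) and overlapped with neither neighbour in that order. Cnn1 at 1.48 and Mylk at 1.46 CPM per kb could not be ordered, since Cnn1 was higher in 2 of 6 libraries. Lmod1 stood at 0.917 and Oxtr at 0.499 CPM per kb, with overlapping ranges, and Actg2 at 0.353. The Tagln value of 0.110 CPM per kb is subject to the overlap described above. So the motor heavy chain was measured well below the actin and the light chain that work with it, in every library.

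The spread between replicates also differed between members. In untreated glands the SD was 3.61% of the mean for Myl9, 10.6% for Myh11, 14.2% for Acta2 and 16.7% for Mylk. It was 24.3% for Lmod1, 27.0% for Cnn1 and 62.7% for Oxtr. Each of these rests on 3 libraries and on unlike counts, from 155 to 199 for Myl9 to 13 to 48 for Oxtr. The part of low counts in these spreads was not tested. In irradiated glands it ranged from 14.2% for Myh11 to 112.5% for Oxtr among the tested members. Irradiated replicate 1 held the lowest CPM for 6 of the 9 members, namely Acta2, Myh11, Cnn1, Mylk, Myl9 and Oxtr. Untreated replicate 3 held the highest for Acta2, Cnn1 and Mylk.

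Summed over the 9 members, the untreated libraries held 93.2, 98.1 and 108.1 CPM and the irradiated ones 70.2, 103.8 and 87.0 CPM. As a share of gene counts this was 0.0095% ± 0.0011 for untreated glands and 0.0092% ± 0.0026 for irradiated ones (SD, n = 3 each). Acta2 made up 31.2% to 36.9% of the summed member counts in every library. The groups overlapped by either measure. In summed CPM irradiated replicate 2 lay within the untreated range. As a share of gene counts it lay above that range, at 0.0121% against 0.0088% to 0.0108% in untreated libraries.

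In the edgeR quasi-likelihood fit, adjusted by Benjamini-Hochberg over all 12885 genes, 0 of the 7 tested members were higher and 0 lower after irradiation. Over all tested genes 0.652% were higher and 0.349% lower. DESeq2 and limma-voom also called 0 members. At an unadjusted p under 0.05 there was 1 member, Cnn1, by each of the 3 tools, where 15.0% of all tested genes reached this by edgeR. The irradiated and untreated libraries overlapped for all 9 members, while they did not for 21.2% of all tested genes. Of the 7 fold changes 6 were negative, against 50.9% of all genes, and the median was -0.25 on the log2 scale against -0.0067 for all genes. With library totals as the scale the median of all genes was 0.14 and that of the members -0.09. Without irradiated replicate 2 all 7 fold changes were negative and their median was -0.36, with the lowest edgeR adjusted p at 0.166, for Cnn1. At an unadjusted p under 0.05 by edgeR there were then 3 members, Acta2, Cnn1 and Mylk, and 0 without irradiated replicate 1 or 3. Without irradiated replicate 1 the members' median was -0.12.

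**Figure D2:**
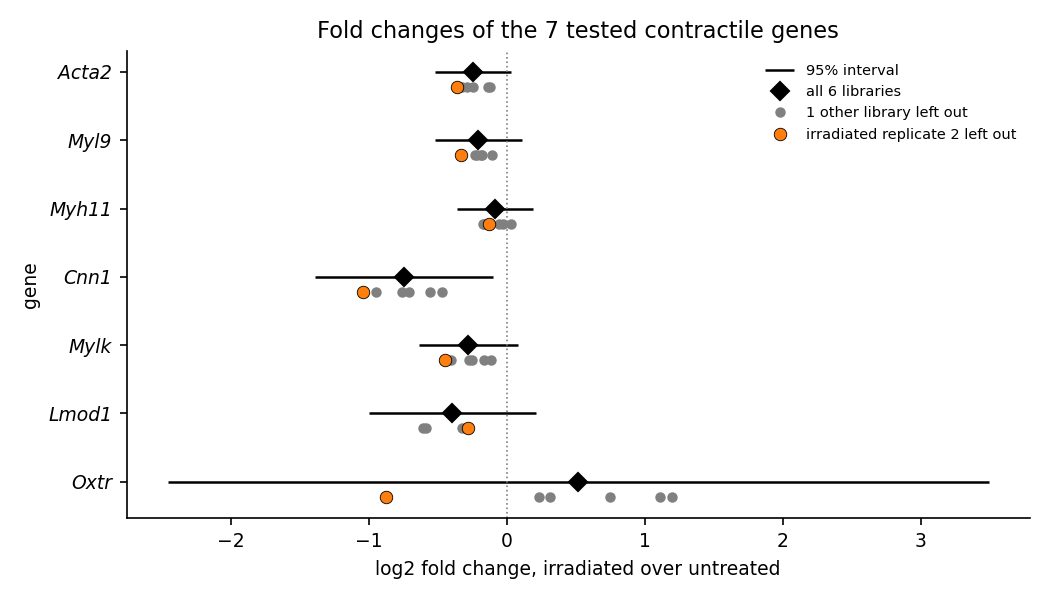
Log2 fold change (irradiated over untreated) of the 7 tested members with all 6 libraries (diamonds) and its 95% interval before adjustment (lines), with the values when 1 library is left out below each (dots). Of the intervals, those of Acta2, Myl9, Myh11, Mylk, Lmod1 and Oxtr span 0 and that of Cnn1 runs from -1.39 to -0.10. Oxtr moves from 0.52 to -0.87 without irradiated replicate 2.

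The rest of the contractile pathway was followed in 6 lists, of which 67 genes were tested. By edgeR 0 of the 67 passed in either direction, 10 had an unadjusted p under 0.05, and DESeq2 and limma-voom called 0 of them. Over all tested genes 1.00% passed by edgeR and 15.0% had an unadjusted p under 0.05. The same shares stand beside the edgeR counts of each list below. Other settings gave single calls: Myh9 was higher with library totals, Actg1 was lower without irradiated replicate 2, and without a filter on low counts Tpm2 was lower and Cnn2 and Mrtfa were higher. Among 15 other proteins of the contractile apparatus the median log2 fold change was -0.07, or -0.21 without irradiated replicate 2 and -0.02 without untreated replicate 3, with 10 negative and 5 positive values and 3 genes at an unadjusted p under 0.05. Cald1, caldesmon, stood at 116.3, 118.1 and 123.2 CPM in untreated and 126.9, 107.8 and 121.3 CPM in irradiated glands, a log2 fold change of -0.0061 (SE 0.11). Tns1, tensin, which ties actin to adhesions, had -0.07 (SE 0.10). Tpm1, a tropomyosin, lay lower in each irradiated library (68.3, 73.2 and 45.7 CPM) than in any untreated one (78.6, 92.6 and 77.3 CPM), at -0.41 (SE 0.16; edgeR adjusted p = 0.251). Groups that lie apart with irradiated libraries lower were found for 10.6% of all tested genes.

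Tropomyosins and desmin are also proteins of skeletal muscle, whose reads differed widely between these libraries. All 14 listed skeletal muscle markers were matched and none was at 0 in every library. Their summed level was 581.6 to 756.3 CPM in untreated libraries, 511.9 and 606.8 CPM in irradiated replicates 1 and 2, and 182.4 CPM in irradiated replicate 3. Of the 13 tested markers 0 passed by edgeR, 2 had an unadjusted p under 0.05, and the median was -0.73, or -1.07 without irradiated replicate 2 and -0.35 without irradiated replicate 3. All 13 fold changes were negative. Limma-voom put 10 of the 13 at an unadjusted p under 0.05 and DESeq2 put 3 there, and both called 0. Mb, a listed marker, was called lower by edgeR without irradiated replicate 2 and without a filter on low counts. Tpm2 too was lowest in irradiated replicate 3, at 50.4, 60.4 and 53.1 CPM in untreated and 38.0, 47.5 and 20.5 CPM in irradiated glands. Myh4, a fast myosin heavy chain, stood at -0.55 on the log2 scale (SE 0.52), and Atp2a1, the calcium pump of fast fibres, -0.73 (SE 0.52). Acta1, the skeletal actin, stood at 147.1, 181.1 and 176.0 CPM in untreated and 110.1, 136.4 and 48.1 CPM in irradiated glands. The part of skeletal muscle in the values of Tpm1 and Tpm2 was not tested.

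Of the phosphatase that takes the phosphate off the light chain, Ppp1cb, the catalytic subunit, stood at -0.06 on the log2 scale (SE 0.12). Ppp1r12a, the targeting subunit, was flat at -0.03 (SE 0.11), with 27.2 to 30.4 CPM over the 6 libraries.

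The calcium arm had a median of 0.09 over 11 tested genes (-0.04 without irradiated replicate 1), 0 of which reached an unadjusted p under 0.05. Calm2, a calcium sensor, had a log2 fold change of -0.13 (SE 0.12; edgeR adjusted p = 0.657). Receptors and phospholipases that trigger contraction had a median of 0.03 over 11 tested genes (-0.07 without untreated replicate 3), again with 0 at an unadjusted p under 0.05. Plcb4, a phospholipase C that releases the calcium signal, had 0.11 (SE 0.13), and Gnaq, the G protein subunit that couples receptors to it, -0.07 (SE 0.11). Chrm3, the muscarinic receptor through which nerves drive salivation, stood at 24.4, 27.8 and 22.1 CPM in untreated and 25.6, 22.1 and 27.8 CPM in irradiated glands. The muscarinic receptor thus varied far less between libraries than Oxtr.

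The serum response factor and its coactivators had a median of -0.11 over 5 tested genes (from -0.18 without irradiated replicate 2 to -0.015 without irradiated replicate 3), with 2 at an unadjusted p under 0.05. Srf itself stood at 16.9, 11.7 and 14.6 CPM in untreated and 13.5, 14.0 and 11.8 CPM in irradiated glands (-0.14, SE 0.15). Myocd, the coactivator that gives smooth muscle its identity, had 1 to 4 counts per library and was not tested. Mrtfb, a broadly expressed relative, had -0.11 (SE 0.14), and Foxo4, a factor that restrains myocardin, had -0.28 (SE 0.11; edgeR adjusted p = 0.243). Mrtfa, the other broad relative, stood at 5.35, 4.37 and 5.74 CPM in untreated and 6.13, 10.2 and 10.3 CPM in irradiated glands. Its log2 fold change of 0.76 (SE 0.22; edgeR adjusted p = 0.101) missed the threshold.

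**Figure D3:**
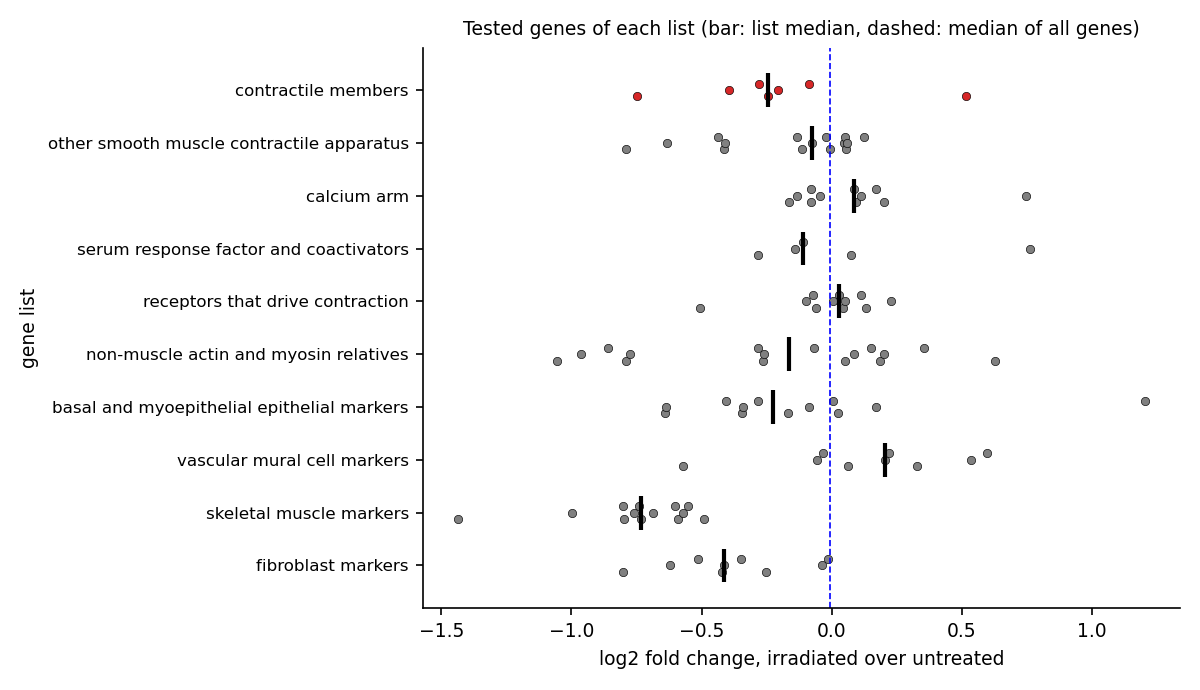
Log2 fold change (irradiated over untreated) of each tested gene in the contractile members, 5 of the 6 pathway lists and 4 cell type lists, with a bar at each list's median and a dashed line at the median of all 12885 genes. The members' median lies at -0.25, these pathway lists between -0.16 and 0.09, and the skeletal muscle markers at -0.73.

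Markers of the cells that could carry these genes were set beside them. Basal and myoepithelial markers summed to 125.8 to 137.4 CPM in untreated and 119.3 to 136.7 CPM in irradiated glands, and 1 of the 13, Pdpn, was at 0 in every library. Of 12 tested 0 passed by edgeR, 2 had an unadjusted p under 0.05, and the median was -0.22, or -0.38 without irradiated replicate 2 and -0.09 without untreated replicate 3. Itgb4 and Itga6, which form the integrin of hemidesmosomes, had log2 fold changes of -0.09 (SE 0.15) and 0.17 (SE 0.12). Krt14, the keratin that marks myoepithelial and basal cells, stood at 9.38, 11.2 and 11.4 CPM in untreated and 5.86, 6.50 and 8.20 CPM in irradiated glands. Its log2 fold change of -0.64 (SE 0.18) missed the threshold, with an edgeR adjusted p of 0.0907, although the groups lay apart, and it passed without a filter on low counts. Dsc3, a desmosomal cadherin of basal layers, lay the other way, at 2.30, 1.05 and 1.00 CPM in untreated and 2.73, 4.21 and 3.19 CPM in irradiated glands (1.21, SE 0.39; edgeR adjusted p = 0.133). Krt5, the partner of Krt14, overlapped between the groups, at -0.34 (SE 0.21), and Trp63, the transcription factor of basal cells, had 0.0057 (SE 0.28).

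Vascular mural markers summed to 62.9 to 77.1 CPM in untreated and 77.1 to 86.6 CPM in irradiated glands, ranges that barely met, and none was at 0 in every library. Of 9 tested 0 passed by edgeR, 1 had an unadjusted p under 0.05, and the median was 0.20, opposite in sign to that of the contractile members. Without irradiated replicate 2 this median was 0.0016. Rgs5, a pericyte marker, had 0.22 (SE 0.11; edgeR adjusted p = 0.374), and Notch3, a receptor of vessel wall cells, 0.20 (SE 0.21). Endothelial markers had a median of 0.09 over 8 tested genes (-0.02 without irradiated replicate 1), with Pecam1 at 0.33 (SE 0.13) and Kdr at 0.40 (SE 0.15), and 0 passed by edgeR.

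Fibroblast markers had a median of -0.41 over 9 tested genes, or -0.51 without untreated replicate 1 and -0.17 without untreated replicate 3. Pi16, a marker of fibroblasts around vessels, was lower after irradiation by edgeR at a log2 fold change of -0.62 (SE 0.13; adjusted p = 0.0239). Its call was lost by limma-voom (adjusted p = 0.0954). By edgeR it was lost without untreated replicates 2 or 3 or irradiated replicates 1 or 2 (adjusted p of 0.0651 to 0.158). EdgeR also lost it with library totals (adjusted p = 0.0521), without robust shrinkage (0.0973) and with a replicate block (0.0544). The fibroblast sum was 1817 CPM in untreated replicate 3, against 1127 and 1280 CPM in the other untreated libraries and 903.5 to 1207 CPM in the irradiated ones. The fat cell sum was 393.8 CPM in untreated replicate 3 and 148.1 to 249.5 CPM elsewhere, with 0 of 6 tested markers called. The fat cell median was -0.43, or -0.63 without untreated replicate 2 and -0.10 without untreated replicate 3. Fabp4 had -0.53 (SE 0.35) and Cfd -0.63 (SE 0.29). Untreated replicate 3 is also the library with the highest Acta2, Cnn1 and Mylk, and the part of its other cells in those values was not tested.

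Among the remaining lists, acinar markers had a median of -0.15 over 11 tested genes, with Car6, the secreted carbonic anhydrase, lower by edgeR at -0.79 (SE 0.18; adjusted p = 0.0329). Limma-voom did not call Car6 (adjusted p = 0.0954), while DESeq2 called it and Pip. EdgeR did not call Car6 when any library but irradiated replicate 3 was left out (adjusted p of 0.0693 to 0.270). Nor did edgeR without robust shrinkage (adjusted p = 0.101), with a replicate block (0.180) or with a transcript length trend removed (0.0592). Duct markers had a median of -0.13 over 10 tested genes (-0.29 without irradiated replicate 2, -0.07 without untreated replicate 3) with 0 called, Krt18 (which DESeq2 called) at -0.53 (SE 0.13) and Krt8 at -0.06 (SE 0.10). Nerve and Schwann cell markers had a median of -0.25 over 4 tested genes (-0.40 without irradiated replicate 2, -0.11 without untreated replicate 2) with 0 called, Sox10 at -0.05 (SE 0.12) and Mbp at -0.01 (SE 0.13).

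**Figure D4:**
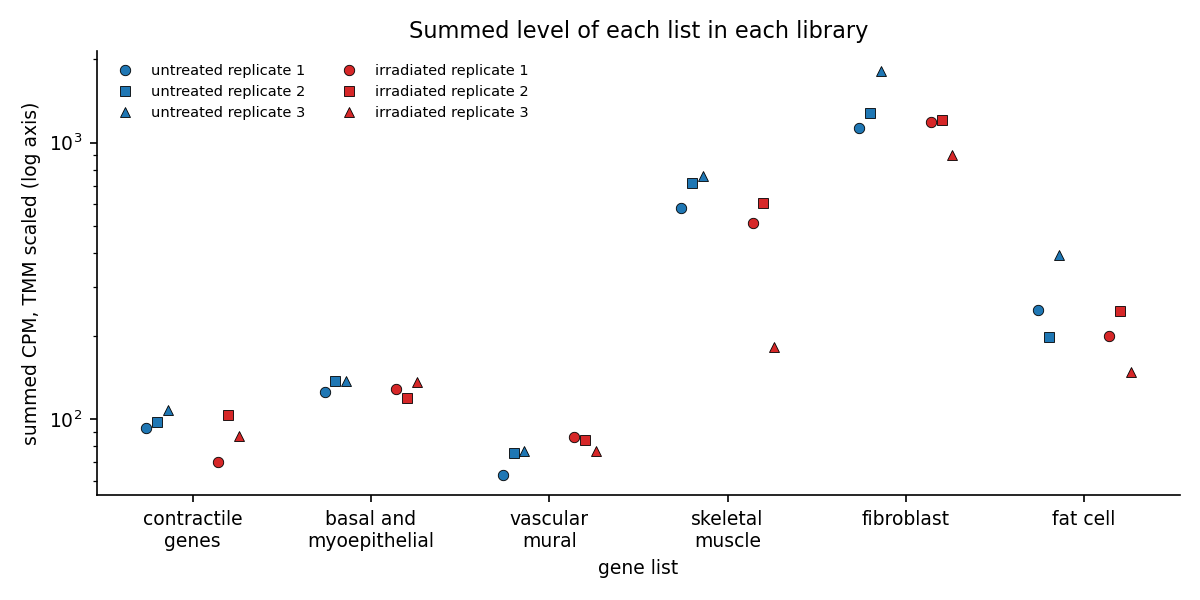
Summed TMM-scaled CPM of the 9 contractile genes and of 5 cell type lists in each library, on a log axis. The contractile sum runs from 70.2 to 108.1 CPM, while the skeletal muscle sum falls to 182.4 CPM in irradiated replicate 3 and the fibroblast sum reaches 1817 CPM in untreated replicate 3.

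The profile of the tested members over the 6 libraries, as their mean log2 CPM around each gene's own mean, was -0.10, 0.13 and 0.36 in untreated and -0.64, 0.30 and -0.05 in irradiated glands. Mylk lay closest to it, at a root mean square difference of 0.0990 log2 units, and Oxtr farthest, at 0.892. Oxtr, on 5 to 55 counts, stood at -1.90 in irradiated replicate 1 and 1.87 in irradiated replicate 2. The other tested members held -0.92 to -0.28 and -0.45 to 0.20 there. The profile, and the 5 genes nearest it, thus lean on Oxtr. Among 12288 other tested genes with a mean of at least 1 CPM, the 5 with the smallest difference were Dpm3 (0.0603), Vil1 (0.0820), Gm13889 (0.0860), Cep89 (0.0959) and Aqp1 (0.100). The median over those genes was 0.401. The 6 libraries are few points for such a ranking, and the 5 genes share libraries and depth with the members.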

How the data were processed

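RNA of 6 parotid gland samples was sequenced from strand-marking total RNA libraries, per the labels' protocols. The deposited values are raw read counts per Ensembl gene. The submitters' processing notes name bcl2fastq, HISAT2, HTSeq and mm10, while versions, annotation release and strand setting are not given in the sources used here. Rows naming no gene held 32.4% to 40.7% of reads and were left out. The members and gene lists were chosen with earlier results of these data known.

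Symbols, coordinates and exon lengths came from GENCODE M21 (mm10), which matched 52403 of 52636 genes. Promoters came from the RefSeq table on GRCm38.p6. Irradiated was tested against untreated with edgeR's quasi-likelihood test (edgeR 4.0.16, R 4.3.3) with robust shrinkage, TMM normalisation, a count filter (filterByExpr, minimum count 10) and Benjamini-Hochberg adjustment, threshold 0.05. The script was tested on simulated counts. DESeq2 1.42.0, limma-voom (limma 3.58.1), other filters and scalings, a replicate block, removal of a transcript length trend and leaving out each library were alternatives. An SE is the size of a fold change over the root of its F value, and 95% intervals use the test's degrees of freedom. Gene lengths for CPM per kb are unions of exons.

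All 9 members are named. By rule, each of 15 other lists is represented by up to 4 called genes, or else its 2 most abundant ones, and the 5 genes nearest the members' profile are named. Tnnc2, Gm48529, Prol1, Tpm1, Tpm2, Acta1, Ppp1r12a, Chrm3, Srf, Myocd, Mrtfa, Krt5, Krt14, Dsc3, Trp63, Pdpn, Pip, Lmod2, Lmod3, Tmod1, Cnn2, Myh9 and Mb were named after their values were seen. Mkl1 and Mkl2 are older symbols of Mrtfa and Mrtfb and were not matched again. Some items of 2 pathway lists are not reported here. Depth limits members under about 10 counts per library.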

Additional observations from a re-analysis of the deposited data

How the results depend on the processing

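No member was called in any of the 14 alternatives, and Acta2, Cnn1, Mylk, Myl9 and Lmod1 kept a negative fold change in each of them. The fold change of Myh11 reversed to 0.064 with scaling by library totals and to 0.033 without irradiated replicate 1, and it ran from -0.17 to 0.033 over the sets leaving out 1 library. Oxtr reversed to -0.49 by limma-voom, and over those sets it ran from -0.87 to 1.19. The cause of these reversals was not tested. The members' median ran from -0.36 to -0.12 over the sets. The counts of all genes called moved more: 84 higher and 45 lower became 260 and 22 with library totals (92.2% of calls higher against 65.1%), 279 and 239 without a count filter, 21 and 5 without robust shrinkage and 20 and 5 by limma-voom. DESeq2 gave 121 and 70, and removal of the length trend 78 and 27. Leaving out 1 library gave 31 to 83 higher and 14 to 72 lower: 31 and 14 without irradiated replicate 1, 29 lower without untreated replicate 1, 21 lower without untreated replicate 2 and 72 lower without irradiated replicate 3. With the replicate block 39 genes were higher and 14 lower. The labels do not say whether same-numbered samples belong together. Their deviations correlated at 0.020, -0.11 and -0.11. These values cannot settle it, since deviations within a group of 3 libraries are tied to each other. The block called no member. Of 36 group means of members 5 moved by more than the replicate SD with the other scaling or length, and of 210 medians of other lists 23 did under the alternatives. Low counts limit Oxtr (5 to 55 per library), Actg2 (1 to 11) and Tagln (1 to 6).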

Other observations

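Other relatives of the members were followed in a list that holds non-muscle genes and also genes of striated muscle. Of 16 tested genes 0 passed by edgeR, by DESeq2 or by limma-voom, and 4 had an unadjusted p under 0.05 by edgeR, where 15.0% of all tested genes did. The median log2 fold change was -0.16, or -0.065 with the stricter count filter. Among them the striated muscle genes Acta1 (-0.78, SE 0.43), Lmod2 (-0.96, SE 0.74), Lmod3 (-1.06, SE 0.65) and Tmod1 (-0.86, SE 0.58) had the lowest values beside Actg1, and none passed by edgeR. Cnn2, a calponin of non-muscle cells including leukocytes, stood at 11.2, 6.03 and 10.01 CPM in untreated and 13.85, 15.03 and 13.5 CPM in irradiated glands, at 0.63 (SE 0.19; edgeR adjusted p = 0.110). Its smooth muscle relative Cnn1 had the opposite sign, at -0.75 (SE 0.31), and the difference between them was not tested. Myh9, the non-muscle myosin heavy chain, was higher in each irradiated library (138.2, 130.1 and 156.8 CPM) than in any untreated one (107.5, 98.1 and 127.2 CPM), at 0.35 (SE 0.12; edgeR adjusted p = 0.164). It passed with scaling by library totals, at 0.49 (SE 0.11; edgeR adjusted p = 0.022).

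Neither cytoplasmic actin passed with all 6 libraries. Actb stood at 290.8, 247.1 and 327.7 CPM in untreated and 334.8, 327.2 and 334.0 CPM in irradiated glands, at 0.20 (SE 0.13; edgeR adjusted p = 0.496). Actg1 stood at 369.1, 349.6 and 412.0 CPM in untreated and 287.4, 107.9 and 258.2 CPM in irradiated glands, at -0.79 (SE 0.41; edgeR adjusted p = 0.478). Without irradiated replicate 2 Actg1 was lower after irradiation, at -0.47 (SE 0.11; edgeR adjusted p = 0.0446), and with any other library left out it did not pass. The difference between both actins was not tested. The lowest Actg1 value was in irradiated replicate 2, whose row for low alignment quality held 184 reads against at least 342749 elsewhere. Of the 50-base words of Actg1, 56.7% also occurred in another gene's transcript, against 14.2% for Actb and 0.352% for Acta2. Whether this library was aligned or counted in another way was not tested.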
